A study of Mus musculus with 33 samples.

Results

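The transcripts of 10 G-protein-coupled receptors were followed in mouse colon organoid lines that carry the AKP mutations and in their non-induced counterpart. They were *Glp1r*, *Ffar2*, *Ffar4*, *Gper1*, *Adora1*, *Adra2a*, *Tacr3*, *F2r*, *F2rl1* and *Lpar6*, 10 of the 32285 gene identifiers counted, matched by Ensembl identifier. They were selected on their measured levels in these same 33 libraries, as receptors that differed between AKP lines, so differences between AKP lines are given as a description without a p-value. Levels are in CPM (counts scaled to library size by the TMM method). All 10 passed the filter of at least 1 CPM in at least 3 libraries. *Glp1r*, *Ffar2*, *Gper1* and *Adora1* reached 1 CPM in 12, 12, 7 and 11 libraries, which were libraries of in vivo AKP and of lines #v and #iv and, for *Ffar2*, also 3 of organoid AKP.

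G-protein-coupled receptors span the membrane as a bundle of helices and, once a ligand binds outside the cell, switch on a heterotrimeric G protein inside it. Receptors that couple to Gs raise cyclic AMP, those that couple to Gi lower it, and those that couple to Gq release calcium through phospholipase C beta. In the colon they sense hormones, fatty acids from bacteria and food, transmitters of enteric nerves, proteases and signalling lipids. Protease-activated receptors are opened by cleavage, which exposes a ligand tethered to the receptor itself.

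All lines came from colon cells whose alleles included *Apc* fl/fl and *Trp53* fl/fl, and all were grown as organoids for 3 days and starved of growth factors for 24 h. In vivo AKP (6 libraries) were organoids from colon tumours of mice that also carried *Cdx2-creERT2*, a tamoxifen-inducible recombinase under an intestinal epithelial promoter, and that had received tamoxifen at 8 to 10 weeks of age and been kept for 6 weeks. Mini-colon AKP #i to #v (3 libraries each) were organoid lines from mini-colons, colon tissues grown on a chip, in which blue light had switched on OptoCre, a light-driven Cre. Line #v came from a mini-colon rich in crypt tumours and line #i from one rich in lumen tumours. Organoid AKP (6 libraries) were organoids recombined with the same light module and passaged alongside, and control libraries (6) were organoids with the same alleles that had not been induced. The study describes replicates of organoid AKP and of the mini-colon lines as separate cultures, and no label ties a library to a separate mouse, so p-values measure the spread between cultures or libraries of a line.

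Total counts were between 2438672 and 8256526 per library (median 3748649), from reads at transcript 3′ ends. The codes of the count tables carry a letter, E or F, whose meaning is not stated. Lines #i to #iii were all E and lines #iv and #v all F, so among these lines letter and line cannot be told apart. The other lines had 3 libraries of each letter. Total counts in E and F libraries were 2660584 to 2841963 and 6057927 to 7852555 in control. In organoid AKP they were 2751409 to 3594398 and 5613299 to 7232715, so letter and depth differed together in both lines. In vivo AKP had 5239486 to 5525914 in E and 2438672 to 6735813 in F libraries. Summed levels of the 7 epithelial markers were 3006 to 3662 CPM in AKP libraries and 9377 to 10819 CPM in control, with no marker at 0 in any line. *Trp53* had 19.2 to 34.2 CPM in in vivo AKP, 1.07 to 11.7 CPM in the other AKP lines and 14.4 to 19.1 CPM in control. The study's methods name the exons that recombination deletes in *Apc* and *Trp53*, but counts per gene from 3′ reads do not show which exons a transcript holds, so they check no recombination.

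To show what lies upstream of receptors with contrasting patterns, 4 promoter windows are given, each from 250 bases before to 50 bases after a transcript start. *Glp1r* and *Gper1* were highest in in vivo AKP, *F2r* was higher than in organoid AKP in every other AKP line by mean level, and *Tacr3* had no count in in vivo AKP. The sequences are RefSeq's, from a table on GRCm38.p6, and each was found once by exact match in GRCm39, to which the coordinates refer. Capitals mark the GC box GGGCGG, the AP-1 motif TGANTCA and the TATA box TATAAA on either strand.
Glp1r, chr17:31120591-31120890, plus strand: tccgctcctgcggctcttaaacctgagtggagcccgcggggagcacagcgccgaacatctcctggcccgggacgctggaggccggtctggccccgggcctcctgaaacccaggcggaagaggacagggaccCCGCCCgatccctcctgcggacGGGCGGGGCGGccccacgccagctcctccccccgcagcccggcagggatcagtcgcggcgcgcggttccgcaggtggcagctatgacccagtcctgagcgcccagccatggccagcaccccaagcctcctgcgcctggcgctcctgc
Gper1, chr5:139408684-139408983, plus strand: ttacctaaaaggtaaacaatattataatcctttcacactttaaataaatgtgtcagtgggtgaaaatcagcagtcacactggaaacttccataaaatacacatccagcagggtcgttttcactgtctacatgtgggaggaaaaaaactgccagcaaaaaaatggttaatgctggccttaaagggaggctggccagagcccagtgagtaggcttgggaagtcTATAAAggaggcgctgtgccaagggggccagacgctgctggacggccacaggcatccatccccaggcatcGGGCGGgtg
F2r, chr13:95754925-95755224, minus strand: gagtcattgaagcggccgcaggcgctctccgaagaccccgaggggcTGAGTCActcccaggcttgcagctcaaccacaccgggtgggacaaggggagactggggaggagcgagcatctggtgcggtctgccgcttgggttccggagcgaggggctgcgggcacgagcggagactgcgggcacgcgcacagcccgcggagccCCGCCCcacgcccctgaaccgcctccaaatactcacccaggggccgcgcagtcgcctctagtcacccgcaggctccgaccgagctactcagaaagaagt
Tacr3, chr3:134534518-134534817, plus strand: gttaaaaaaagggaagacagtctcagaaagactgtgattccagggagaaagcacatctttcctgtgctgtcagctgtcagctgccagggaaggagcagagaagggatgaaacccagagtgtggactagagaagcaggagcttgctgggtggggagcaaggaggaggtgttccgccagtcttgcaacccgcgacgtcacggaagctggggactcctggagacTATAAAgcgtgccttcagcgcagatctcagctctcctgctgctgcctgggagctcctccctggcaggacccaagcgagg

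The *Glp1r* window held 29 CpG dinucleotides and 3 GC boxes, and the *F2r* window 28 CpG, 1 GC box and 1 AP-1 motif. The *Gper1* window held 6 CpG, 1 GC box and 1 TATA box, and the *Tacr3* window 8 CpG and 1 TATA box. Of all 32851 promoter windows in the table, 35.7% held a GC box, 7.81% an AP-1 motif and 13.6% a TATA box, and the median number of CpG was 7. The motif CTTTGA of TCF/LEF factors stood in 16.0% of all windows and in none of the 13 windows of the 9 receptors found in the table. Of these 9 receptors, *Gper1*, *Adra2a* and *Tacr3* held the TATA letters. *Gper1* and *Adra2a* were higher and *Tacr3* lower in in vivo AKP than in organoid AKP, and a link of motif and level was not tested.

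The levels by library fell into several patterns. *Glp1r*, *Ffar2*, *Gper1* and *Adora1* were high in in vivo AKP and near the detection limit in organoid AKP and control. *F2r* was higher in in vivo AKP and all mini-colon lines than in organoid AKP by mean level, and *Tacr3* was not detected in in vivo AKP. *Ffar4*, *F2rl1* and *Lpar6* were highest in control. In bulk RNA, fewer cells with a transcript and less of it per cell cannot be told apart.

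**Figure D1:**
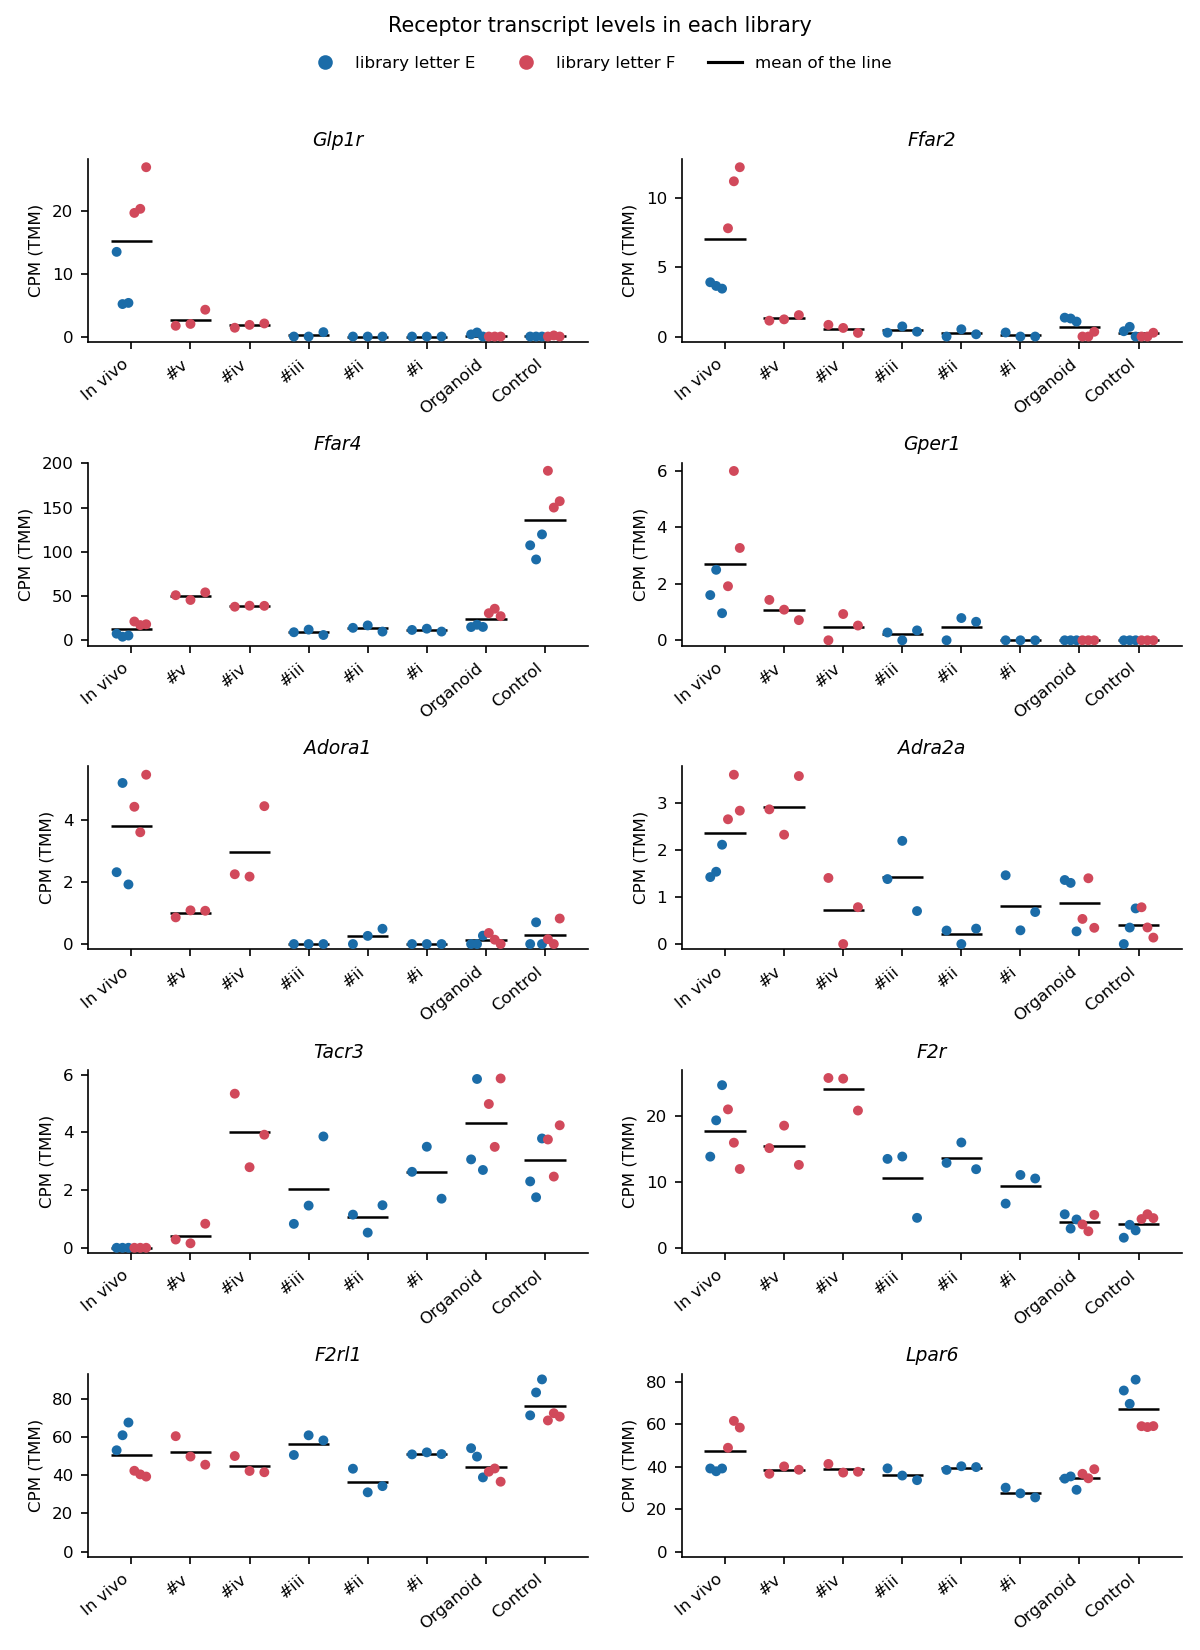
TMM-scaled CPM (vertical axes, 1 scale per receptor) of the 10 receptors in each of the 33 libraries, by line (in vivo AKP, mini-colon AKP #v to #i, organoid AKP, control). Points are libraries, marked by library letter, and horizontal lines are line means. *Glp1r* averaged 15.2 CPM in in vivo AKP, against 0.165 CPM in organoid AKP, and *Tacr3* was at 0 in all 6 in vivo AKP libraries.

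*Glp1r* (chromosome 17, 31120525 to 31159765, plus strand, GRCm39) encodes the receptor of the incretin glucagon-like peptide 1, which couples to Gs. In vivo AKP had 5.19, 16.6 and 27.0 CPM in the lowest, median and highest library and a mean of 15.2 ± 8.80 CPM (SD, n = 6), against 0 to 0.650 CPM in organoid AKP. The libraries did not overlap: 440 counts in in vivo AKP stood against 3 in organoid AKP, a ratio of summed counts per summed library size of 139 (95% exact counting interval 47.2 to 675). The ratio of the mean CPM was 92.2. Such intervals and floors cover counting error only.

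Among mini-colon lines, *Glp1r* was detected chiefly in both lines of letter F. It had 1.72, 2.01 and 4.29 CPM in line #v and 1.40, 1.86 and 2.09 CPM in line #iv, all above every organoid AKP library. The ratio of summed counts to organoid AKP was 28.3 (95% exact counting interval 9.18 to 141) for line #v and 16.9 (95% exact counting interval 4.97 to 89.1) for line #iv, and that of the mean CPM was 16.2 and 10.8. Line #iii held 2 counts, and lines #ii and #i none, which allows up to 0.224 and 0.307 CPM at a floor of 3 counts over the line. Lines #v and #iv overlapped each other and both lay below in vivo AKP.

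*Ffar2* (chromosome 7, 30517773 to 30536075, minus strand) encodes a receptor of acetate, propionate and other short-chain fatty acids that couples to Gi and Gq. In vivo AKP had 3.45, 5.86 and 12.2 CPM in the lowest, median and highest library, against 0, 0.712 and 1.36 CPM in organoid AKP. The libraries did not overlap, and the log2 fold change was 3.63 ± 0.53 (SE). Line #v had 1.15, 1.24 and 1.55 CPM, which overlapped organoid AKP, with a log2 fold change of 1.29 ± 0.70. Lines #iv, #iii, #ii and #i averaged 0.575, 0.453, 0.230 and 0.0975 CPM and overlapped organoid AKP as well.

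*Ffar4* (chromosome 19, 38085307 to 38105287, plus strand) encodes a receptor of long-chain fatty acids that couples mainly to Gq. In vivo AKP had 4.03, 12.3 and 21.2 CPM in the lowest, median and highest library, against 15.0, 22.4 and 35.7 CPM in organoid AKP. These ranges overlapped, with a log2 fold change of -1.0 ± 0.30. Line #v had 51.0, 45.6 and 54.2 CPM, a log2 fold change over organoid AKP of 1.05 ± 0.32, and line #iv had 37.9, 39.1 and 38.9 CPM (0.67 ± 0.34). Both lay above every organoid AKP library. Lines #iii and #i lay below every one, with 9.11, 12.1 and 5.96 CPM and 11.7, 13.1 and 9.87 CPM and log2 fold changes of -1.36 ± 0.40 and -1.06 ± 0.40. These lines were all of letter E, and against the E libraries of organoid AKP alone the values were -0.75 ± 0.23 and -0.45 ± 0.23, while lines #v and #iv against its F libraries had 0.68 ± 0.11 and 0.29 ± 0.12. Line #v and in vivo AKP thus stood on opposite sides of organoid AKP by mean level. An exon of *Rbp4* on the other strand overlaps the 3′ end of *Ffar4*. The strand setting of the counting is not given in the sources used here. Reads of this pair cannot be told apart there if strand was ignored.

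*Gper1* (chromosome 5, 139408898 to 139414146, plus strand) encodes a membrane receptor of oestrogen. In vivo AKP had 0.960, 2.21 and 6.0 CPM in the lowest, median and highest library and 70 counts in all, against 0 counts in organoid AKP. That is at least 22.1-fold higher by a floor of 3 counts over organoid AKP. Line #v had 1.43, 1.08 and 0.714 CPM from 18 counts, at least 9.25-fold higher by the same floor. Lines #iv, #iii and #ii held 5, 2 and 7 counts and line #i none, too few to set these lines apart from organoid AKP without overlap.

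*Adora1* (chromosome 1, 134126948 to 134163579, minus strand) encodes the A1 adenosine receptor, which couples to Gi. It reached 1.92, 4.01 and 5.45 CPM in the lowest, median and highest in vivo AKP library, against 0, 0.0699 and 0.356 CPM in organoid AKP, without overlap and with a log2 fold change of 4.51 ± 0.58. Line #iv had 2.25, 2.17 and 4.44 CPM and line #v 0.859, 1.08 and 1.07 CPM. Both lay above organoid AKP, by 4.16 ± 0.69 and 2.65 ± 0.76 on the log2 scale, and line #iv overlapped in vivo AKP. Lines #iii and #i had no count of *Adora1* and line #ii had 4.

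*Adra2a* (chromosome 19, 54032582 to 54037413, plus strand) encodes the alpha-2A adrenergic receptor, which binds noradrenaline and adrenaline and couples to Gi. Its highest mean was in line #v, with 2.86, 2.32 and 3.57 CPM. In vivo AKP had 1.42, 2.38 and 3.60 CPM in the lowest, median and highest library, against 0.270, 0.917 and 1.40 CPM in organoid AKP. Neither line overlapped organoid AKP, at log2 fold changes of 1.76 ± 0.48 for line #v and 1.40 ± 0.44 for in vivo AKP. Within letter E the value for in vivo AKP was 0.85 ± 0.62, and within F 1.85 ± 0.51. Line #iii had 1.38, 2.19 and 0.701 CPM and overlapped organoid AKP.

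*Tacr3* (chromosome 3, 134534755 to 134640340, plus strand) encodes the receptor of the tachykinin neurokinin B and couples to Gq. It had 0 counts in all 6 in vivo AKP libraries, against 2.7, 4.24 and 5.87 CPM in the lowest, median and highest organoid AKP library. In vivo AKP was at least 43.7-fold lower by a floor of 3 counts over the line. Line #v had 0.286, 0.155 and 0.833 CPM, below every organoid AKP library, with a log2 fold change of -3.12 ± 0.51, and line #ii had 1.15, 0.526 and 1.47 CPM and a log2 fold change of -1.96 ± 0.47. Lines #iv, #iii and #i, with means of 4.02, 2.05 and 2.61 CPM, overlapped organoid AKP.

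*F2r* (chromosome 13, 95737382 to 95755177, minus strand) encodes the protease-activated receptor of thrombin. Its lowest, median and highest in vivo AKP libraries had 12, 17.7 and 24.8 CPM, against 2.52, 3.94 and 5.10 CPM in organoid AKP, a log2 fold change of 2.22 ± 0.24 without overlap. Line #iv was the highest, with 25.8, 25.7 and 20.9 CPM and a log2 fold change of 2.64 ± 0.27. Line #v had 15.2, 18.6 and 12.6 CPM (2.0 ± 0.27 on the log2 scale), and lines #iii, #ii and #i had log2 fold changes of 1.51 ± 0.29, 1.81 ± 0.28 and 1.29 ± 0.31. A single library of line #iii, at 4.56 CPM, lay within the organoid AKP range, and every other mini-colon library lay above it. In the order of line means, each neighbour from line #iv down to line #i overlapped the next.

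*F2rl1* (chromosome 13, 95648221 to 95661800, minus strand), on the same chromosome as *F2r*, encodes the protease-activated receptor of trypsin-like proteases. Its mean was 50.6 ± 11.8 CPM for in vivo AKP, 51.9, 44.6, 56.5, 36.2 and 51.3 CPM in lines #v, #iv, #iii, #ii and #i, and 44.1 ± 6.66 CPM in organoid AKP. Every other AKP line overlapped organoid AKP, and the log2 fold change of in vivo AKP was 0.21 ± 0.12. Within letter E this *F2rl1* value was 0.37 ± 0.13, and within F 0.02 ± 0.11. Over organoid AKP libraries of the same letter, lines #v and #iv had 0.32 ± 0.11 and 0.12 ± 0.11. Lines #iii, #ii and #i had 0.25 ± 0.14, -0.40 ± 0.14 and 0.11 ± 0.14. *Lpar6* (chromosome 14, 73475335 to 73480734, plus strand), a lysophosphatidic acid receptor gene with a single exon, had 47.5 ± 10.5 CPM in in vivo AKP, against 34.8 ± 3.24 CPM in organoid AKP (log2 fold change 0.43 ± 0.11), and mini-colon means between 27.7 CPM in line #i and 39.5 CPM in line #ii, all with overlap. *Lpar6* lies within *Rb1* on the other strand with overlapping exons, so reads of this pair cannot be told apart if strand was ignored.

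Counted over the list, 7 of the 10 receptors were past the threshold on the higher side and 2 on the lower side in in vivo AKP against organoid AKP, where 17.4% of all 13606 genes tested were higher and 17% lower. Without overlap of libraries, 6 were higher and 1 lower, beside 7.19% and 6.99% of all genes. In line #v, 6 and 1 receptors were past the threshold (all genes 5.11% and 5.48%) and 6 and 1 free of overlap (9.46% and 8.34%). In line #iv these were 3 and 0 (2.54% and 2.35%), and 4 and 0 (7.25% and 6.64%).

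In line #iii, 1 receptor was past the threshold on the higher side and 1 on the lower (7.44% and 8.78% of all genes), with 0 and 1 free of overlap (10.3% and 9.45%). In line #ii these were 2 and 1 (11.9% and 12.7%), and 1 and 1 (12.1% and 11.4%). Of its 2 higher receptors, *Gper1* had 7 counts against 0 and overlapped organoid AKP. For line #i the numbers were 1 and 0 (3.10% and 4.05%), and 1 and 1 (7.77% and 7.23%). These comparisons share the organoid AKP libraries, and since the receptors were selected for such differences, nothing is read from their counts.

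To place the AKP lines beside non-induced cells, organoid AKP and in vivo AKP were each compared with control. Both comparisons share the control libraries, and the AKP libraries also entered the choice of receptors. The tests of organoid AKP are therefore not independent of that choice, and their adjusted p are given as a description. In organoid AKP, none of the 10 receptors rose and 3 fell, where 37.3% of all genes tested rose and 33.6% fell. The same 3 were lower without overlap of libraries, where 26.1% of all genes were higher and 23.8% lower without overlap. *Ffar4* had 15.0 to 35.7 CPM in organoid AKP, against 91.3 to 192 CPM in control, a log2 fold change of -2.50 ± 0.28 (edgeR quasi-likelihood test, adjusted p = 3.33e-09). *Lpar6* had 29.1 to 38.8 CPM, against 58.7 to 81.0 CPM (-0.94 ± 0.11, edgeR adjusted p = 4.86e-09), and *F2rl1* 36.6 to 54.1 CPM, against 68.6 to 90.1 CPM (-0.79 ± 0.12, adjusted p = 9.15e-07).

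For the other receptors, organoid AKP overlapped control. The log2 fold change was 1.39 ± 0.88 for *Ffar2*, 1.03 ± 0.58 for *Adra2a*, 0.46 ± 0.31 for *Tacr3*, -0.02 ± 0.27 for *F2r* and -1.04 ± 0.84 for *Adora1*, with edgeR adjusted p between 0.109 and 0.958. *Glp1r* had 3 counts in organoid AKP and 1 in control and *Gper1* none in either, so no fold is given.

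In vivo AKP against control is given as a description, since the receptors were chosen by their levels in these same in vivo AKP libraries, and *Glp1r*, *Gper1* and *Adora1* passed the filter only through lines where they were high. Past the threshold, 6 were higher and 4 lower, where 38.9% of all genes tested were higher and 33.3% lower. Without overlap of libraries, 6 were higher and 3 lower, beside 24.9% and 22.4% of all genes. The higher ones were *Glp1r*, with 440 counts against 1 in control, *Gper1*, with 70 against 0, *Ffar2* (log2 fold change 5.02 ± 0.63), *Adora1* (3.47 ± 0.51), *Adra2a* (2.43 ± 0.50) and *F2r* (2.20 ± 0.24). The lower ones were *Ffar4* (-3.50 ± 0.30), *Tacr3*, with 0 counts against 90, *F2rl1* (-0.58 ± 0.12) and *Lpar6* (-0.50 ± 0.11). The libraries of *Lpar6* overlapped, and with F libraries alone its log2 fold change was -0.13 ± 0.10, no longer past the threshold.

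Colonocyte and goblet cell markers moved with both comparisons. The 13 colonocyte markers summed to 496 to 589 CPM in the in vivo AKP libraries and 442 to 640 CPM in those of organoid AKP, against 12134 to 15382 CPM in control. All 12 of them that were tested fell in both lines, where 33.3% of all genes fell in in vivo AKP and 33.6% in organoid AKP. The 9 goblet cell markers summed to 36.7 to 55.3 CPM in the in vivo AKP libraries and 8.11 to 49.1 CPM in those of organoid AKP, against 536 to 842 CPM in control. Their part in the lower *Ffar4*, *F2rl1* and *Lpar6* levels was not tested.

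**Figure D2:**
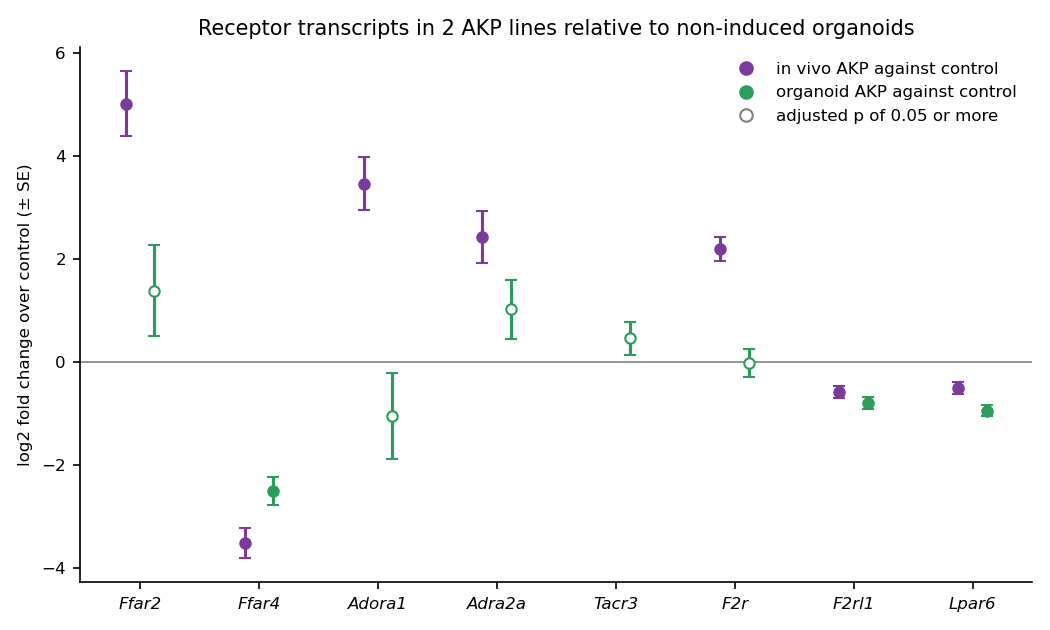
Log2 fold change over control (vertical axis, error bars SE) of the receptors for which a fold was fitted, in vivo AKP left of organoid AKP for each receptor, with filled points at an adjusted p under 0.05 and open points otherwise. *Glp1r*, *Gper1* and, for in vivo AKP, *Tacr3* are left out because of counts at or near 0. *Ffar4*, *F2rl1* and *Lpar6* lie below 0 in both lines, with *Ffar4* at -3.50 in in vivo AKP and -2.50 in organoid AKP.

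The library letter moved with several receptors. In in vivo AKP, *Glp1r* averaged 22.4 ± 4.04 CPM in F libraries and 8.03 ± 4.76 CPM in E libraries (SD, n = 3 each), and *Ffar2* 10.4 ± 2.31 CPM in F and 3.67 ± 0.231 CPM in E libraries. In organoid AKP, *Ffar2* had 2 counts in F and 12 in E libraries. The log2 fold change of *Ffar2* in in vivo AKP over organoid AKP was 6.30 within F and 1.56 within E, a difference of 4.65 ± 0.89 (SE) in the model of line and letter (edgeR interaction, adjusted p = 0.000298). The value within F rests on those 2 organoid AKP counts. Since the receptors were chosen on their levels in these same libraries, the adjusted p of their interactions are given as a description. *Ffar2* was the 1 receptor past the threshold, of 7 with at least 1 count in each line and letter, in a test that called 20.8% of 12603 genes. What the letter stands for is not stated, and its part in the result was not tested further.

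*Ffar4* was higher in F than in E libraries in each line that had both, at 18.8 ± 2.11 CPM and 5.63 ± 1.73 CPM in in vivo AKP, 31.2 ± 4.23 CPM and 15.9 ± 1.45 CPM in organoid AKP and 166 ± 22.2 CPM and 106 ± 14.2 CPM in control. Its log2 fold change in in vivo AKP over organoid AKP was -0.68 within F and -1.47 within E, a difference of 0.73 ± 0.27 (edgeR adjusted p = 0.0537). *F2r* had 2.22 within F and 2.23 within E. *Adora1* had 4.66 ± 0.63 and 4.56 ± 0.92 (SE), over 3 and 1 counts in organoid AKP, too few to compare the letters. For the mini-colon lines, the log2 fold change of *Ffar4* over organoid AKP libraries of the same letter was closer to 0 than over all 6, at 0.68 beside 1.05 in line #v, 0.29 beside 0.67 in line #iv, -0.75 beside -1.36 in line #iii, -0.27 beside -0.86 in line #ii and -0.45 beside -1.06 in line #i. For *Ffar2* it was farther from 0, at 3.39 beside 1.29 in line #v, 2.16 beside 0.09 in line #iv and -1.27 beside -0.10 in line #iii. The same-letter values of lines #v and #iv were set against only 2 counts in organoid AKP.

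**Figure D3:**
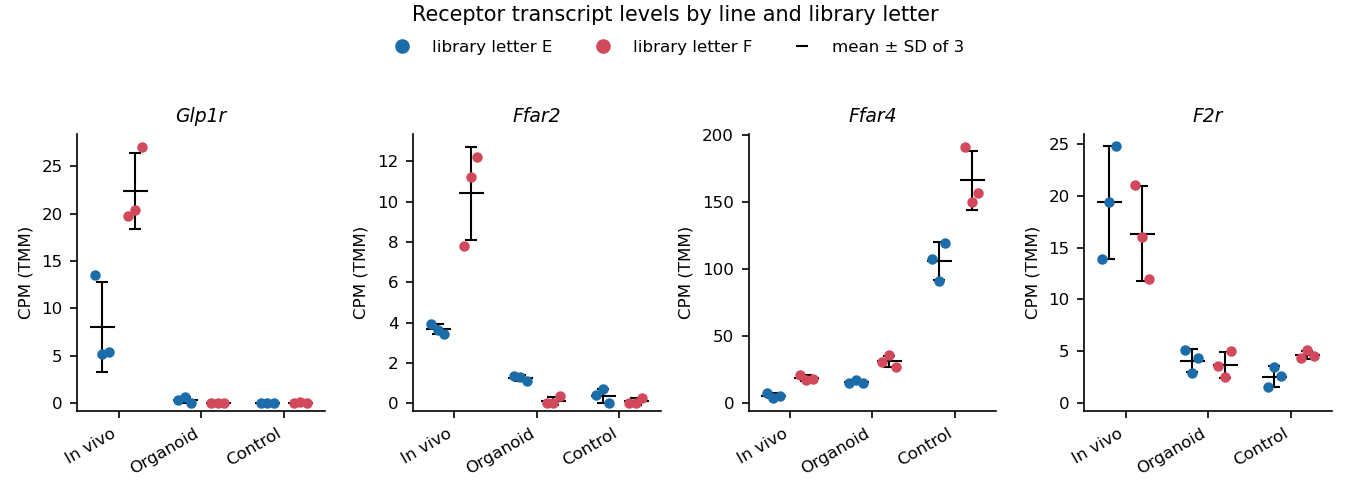
TMM-scaled CPM (vertical axes) of *Glp1r*, *Ffar2*, *Ffar4* and *F2r* in the lines that had libraries of both letters, E beside F in each line. Points are libraries, horizontal bars means and error bars SD of 3 libraries. *Ffar2* in in vivo AKP averaged 10.4 CPM in F and 3.67 CPM in E libraries.

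Over the 33 libraries, Pearson's r on log2 CPM between the 6 receptors that were higher in in vivo AKP than in organoid AKP without overlap ran from 0.37 for *Adra2a* with *F2r* to 0.90 for *Glp1r* with *Ffar2*. It was 0.87 between *Glp1r* and *Gper1*, 0.86 between *Glp1r* and *Adora1* and 0.44 between *Ffar2* and *F2r*, whereas *Tacr3* had an r of -0.84 with *Gper1* and -0.75 with *Ffar2*. These are descriptions over libraries that share lines, letters and many counts of 0, of receptors chosen on the same values. By the same measure the genes most like *Glp1r* were *Tcf4* (r = 0.96), *Sema5a* and *Snhg18*, those most like *Ffar2* *Scn2b* (r = 0.91), *Bace2* and *Ptprt*, those most like *Gper1* *Spock2* (r = 0.91), *Peg3* and *Prox1*, and those most like *Adora1* *Cep85l* (r = 0.89), *Chst11* and *Cfi*. For *Ffar4* they were *Cpne3* (r = 0.97), *Tspan7* and *Atrnl1*, for *Tacr3* *S100a14* (r = 0.88), *Anxa5* and *Dynap*, and for *F2r* *Bend7* (r = 0.82), *Pax2* and *Ssr2*. For *Lpar6* they were *Myo6* (r = 0.93), *Neu1* and *Glrx*, for *F2rl1* they included *Taok3* (r = 0.84) and *Nbeal1*, and for *Adra2a* *Phf21b* (r = 0.79), *Hopx* and *Itln1*.

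A list of 311 other G-protein-coupled receptors, without the 10, was read in the same fit. Of these, 307 were in the tables and 60 passed the filter. In in vivo AKP against organoid AKP, 12 rose and 14 fell, 43.3% of those tested beside 34.4% of all genes, and the median log2 fold change was -0.23 beside 0.00 over all genes. The 10 receptors left out had been selected for differences between AKP lines, with 7 higher and 2 lower here. The share and median of the rest, also by ligand class, thus do not describe receptors as a whole. *Adgrd1*, an adhesion receptor, fell to 0.116 ± 0.145 CPM in in vivo AKP, against 25.8 ± 5.91 CPM in organoid AKP (log2 fold change -7.31 ± 0.29, edgeR adjusted p = 1.79e-20). *Adgrg7*, of the same class, fell to 1.63 ± 0.819 CPM, against 35.2 ± 9.23 CPM (-4.40 ± 0.22, edgeR adjusted p = 1.87e-17). *Chrm3*, a muscarinic acetylcholine receptor, rose to 5.76 ± 3.52 CPM, against 0.444 ± 0.289 CPM (3.66 ± 0.48, edgeR adjusted p = 7.06e-07), and had no count in control. *Adgrl2*, a latrophilin, rose to 23.8 ± 9.95 CPM, against 7.97 ± 0.894 CPM (1.59 ± 0.22, edgeR adjusted p = 6.12e-07).

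By ligand class, 15 adhesion receptors were tested, of which 4 rose and 4 fell in in vivo AKP against organoid AKP, where 17.4% of all genes rose and 17% fell. Of 5 tested receptors of amines and acetylcholine 2 rose and none fell, and of 4 of chemokines and chemoattractants 2 rose and none fell. Of 4 tested receptors of adenosine and nucleotides, the class of *Adora1*, none rose and 2 fell. None of the 4 tested receptors of incretins, gut peptides and pituitary hormones, the class of *Glp1r*, was past the threshold. The other 2 protease-activated receptors did not pass the filter.

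**Figure D4:**
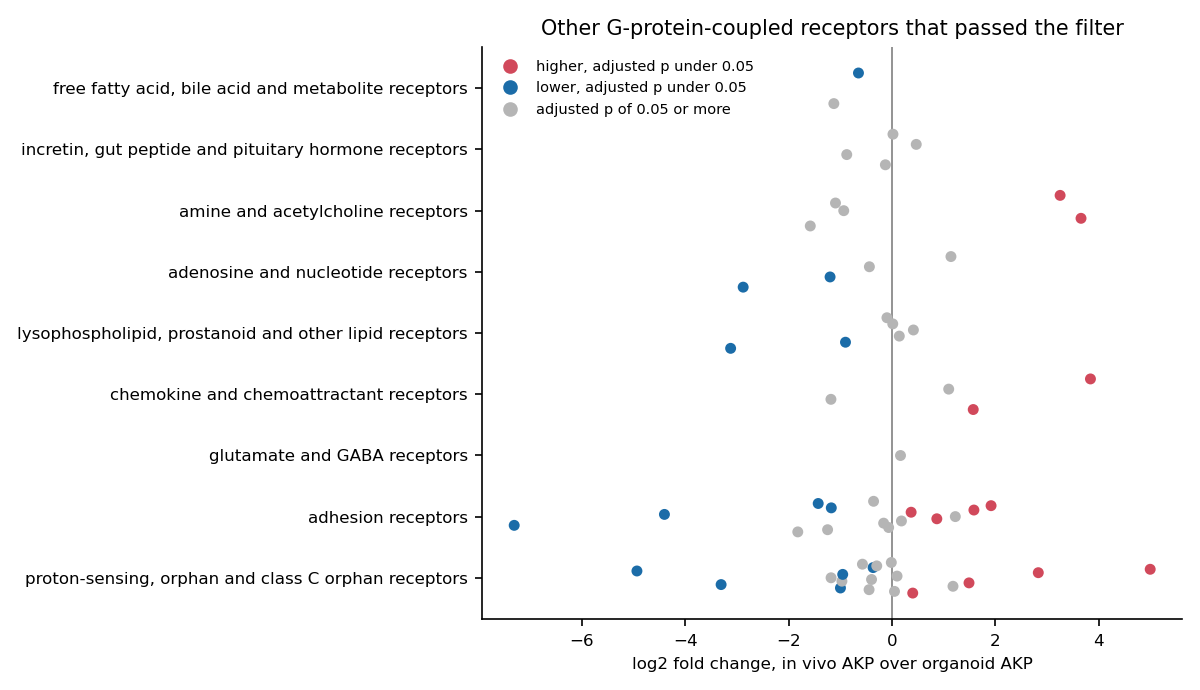
Log2 fold change of in vivo AKP over organoid AKP for the 60 other receptors that passed the filter, on the horizontal axis, grouped by ligand class down the page, 1 point per gene. Past the threshold, 12 receptors are higher and 14 lower in in vivo AKP, with *Adgrd1* the farthest to the left at -7.31.

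In the mini-colon lines against organoid AKP, 5 of the 60 other receptors rose and 2 fell in line #v, 2 and 2 in line #iv, 1 and 6 in line #iii, 8 and 9 in line #ii, and 1 and 6 in line #i. Of all genes, 10.6% were called in line #v, 4.89% in line #iv, 16.2% in line #iii, 24.6% in line #ii and 7.15% in line #i. *Adgrg7* fell in lines #v, #iv, #iii and #i, with log2 fold changes of -1.22 ± 0.21, -1.13 ± 0.22, -1.42 ± 0.22 and -1.38 ± 0.22 (edgeR adjusted p at most 0.000902). In line #v, *Ptger4*, a prostaglandin E receptor, rose to 8.43 ± 0.898 CPM, against 4.22 ± 1.72 CPM in organoid AKP, and *Lpar1*, a lysophosphatidic acid receptor, to 17.3 ± 1.65 CPM, against 8.54 ± 2.08 CPM. *P2ry1*, a receptor of extracellular ADP, rose to 9.37 ± 1.31 CPM in line #iii and 7.91 ± 1.47 CPM in line #ii, against 2.09 ± 1.11 CPM in organoid AKP.

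Against control, 20 of the 60 rose and 27 fell in organoid AKP, and 19 rose and 28 fell in in vivo AKP, 78.3% in each, where 71.0% and 72.2% of all genes were called. *Adgrd1* rose in organoid AKP to 25.8 ± 5.91 CPM, against 0.257 ± 0.180 CPM in control. *Gpr35*, a receptor with disputed ligands, fell to 1.04 ± 0.824 CPM in organoid AKP, against 19.5 ± 2.13 CPM in control. *Gprc5b*, an orphan receptor, rose to 6.24 ± 0.373 CPM in the in vivo AKP libraries and 7.36 ± 3.64 CPM in those of organoid AKP, against 0.0945 ± 0.167 CPM in control.

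Downstream of the receptors, 1 of 23 tested G protein subunits rose and 2 fell in in vivo AKP against organoid AKP, where 17.4% of all genes rose and 17% fell. Of 28 tested effectors of second messengers 8 rose and 4 fell. *Adcy1*, an adenylyl cyclase, rose to 22.8 ± 9.56 CPM in in vivo AKP, against 0.932 ± 0.798 CPM in organoid AKP (log2 fold change 4.41 ± 0.34, edgeR adjusted p = 1.24e-12), while *Adcy3*, another adenylyl cyclase, fell to 2.71 ± 0.965 CPM, against 8.60 ± 0.848 CPM (-1.70 ± 0.25). Of the 6 tested phospholipase C beta enzymes and IP3 receptors 4 rose and none fell, with *Plcb4* at 1.86 ± 0.31 on the log2 scale. Of 19 tested regulators of receptor signalling 5 rose and 8 fell. *Ramp3*, an accessory protein of calcitonin-family receptors, rose to 8.01 ± 2.45 CPM, against 0.394 ± 0.370 CPM, and *Rgs2*, which shortens Gq signals, to 18.8 ± 6.81 CPM, against 3.57 ± 1.40 CPM.

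Of 39 tested genes that make, form or remove the ligands, 9 rose and 8 fell in in vivo AKP against organoid AKP, near the shares of all genes (17.4% and 17%). Among them were 13 proteases and inhibitors that act on protease-activated receptors, of which 5 rose and 3 fell. *Prss8*, a membrane-bound serine protease, rose to 28.1 ± 7.68 CPM, against 11.7 ± 3.06 CPM in organoid AKP, and *Spint1*, an inhibitor of such proteases, to 59.8 ± 3.66 CPM, against 44.0 ± 6.10 CPM. *Prss22*, a serine protease, fell to 13 ± 8.36 CPM, against 61.8 ± 25.0 CPM, and *Klk10*, of the kallikrein family, to 24.1 ± 19.8 CPM, against 77.6 ± 12.7 CPM. Of 10 tested genes of adenosine turnover 1 rose and 3 fell, and of 6 of lysophosphatidic acid 2 rose and none fell.

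Markers of other cell types were summed by line. The sums of enteroendocrine, tuft, and fibroblast and muscle markers were higher in in vivo AKP than in organoid AKP without overlap of libraries. Those of immune, endothelial and platelet, and neural and glial markers overlapped. The 22 enteroendocrine markers summed to 6.80 to 31.9 CPM in in vivo AKP, against 1.04 to 4.76 CPM in organoid AKP and 4.41 to 16.1 CPM in control. Only 7 of the 22 passed the filter, of which 5 rose, where 17.4% of all genes tested rose. *Pax4* and *Rfx6* were at 0 in in vivo AKP. The 8 tuft cell markers summed to 105 to 299 CPM, against 32.2 to 57.2 CPM, with *Avil* alone at 177 ± 82.9 CPM, against 40.5 ± 8.23 CPM, and *Il25* at 0 in in vivo AKP. The 12 fibroblast and muscle markers summed to 45.0 to 286 CPM, against 6.12 to 25.7 CPM, led by *Vim* at 145 ± 117 CPM, against 11.7 ± 7.88 CPM, with *Col3a1*, *Dcn*, *Lum*, *Des* and *Thy1* at 0 in in vivo AKP. Line #v, at 60.9 to 135 CPM, lay within the in vivo AKP range. Lines #iv, #iii, #ii and #i had 25.1 to 34.2, 7.68 to 8.29, 12.9 to 27.0 and 6.73 to 11.7 CPM. The 8 immune markers summed to 9.60 to 15.2 CPM, against 5.18 to 12.6 CPM, the 8 endothelial and platelet markers to 4.80 to 31.8 CPM, against 2.97 to 8.53 CPM, and the 8 neural and glial markers to 4.80 to 14.2 CPM, against 6.12 to 8.77 CPM, with *Sox10* at 0. The part of these cell types in the receptor levels was not tested.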

How the data were processed

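Libraries of 3′ reads (QuantSeq) from 8 organoid lines were read as deposited by the authors: raw counts per Ensembl gene, 1 table per library, aligned by the authors to GRCm39 with STAR. The annotation, counting tool and strand setting are not given in the sources used here. Lines were taken from the sample labels and letters E and F from the library codes. Of the 32285 identifiers, 31674 matched a name in GENCODE M39, and the other 611 held 6.85% of counts. Counts were scaled by TMM and fitted over all 33 libraries and 8 lines with edgeR's robust quasi-likelihood test (R 4.3.3, edgeR 4.0.16, limma 3.58.1), after a filter of at least 1 CPM in at least 3 libraries. Calls are at a Benjamini-Hochberg adjusted p under 0.05 over all 13606 genes. Fold changes are log2, with an SE taken as the fold change's size over the square root of the test's F. Folds against a line without counts were set against 3 counts for that line, and lines with 1 to 3 counts were given by counting ratio with a 95% exact interval. The fit was tested on simulated data. The receptors and gene lists were chosen with earlier results of these data known. Besides the 10 receptors, up to 4 genes per list (up to 3 of the other receptors in further comparisons) were named by largest fold change among those past the threshold, with a mean of at least 5 CPM and no overlap of libraries, and the 3 genes of highest Pearson r per receptor. Alternatives were DESeq2 size factors, no filter, limma-voom, DESeq2 1.42.0, only the lines compared, the replicate number as a block, the letter as a factor, each letter alone, and each library left out. Some items that these rules name, and 1 allele of the lines, are not reported here.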

Additional observations from a re-analysis of the deposited data

Results flagged for a closer look

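In 6 control libraries *Glp1r* was at 0 in all but 1, which had 0.176 CPM from 1 count. Any single read stands apart in a line that is otherwise at 0, and 1 count is under the floor of 3 counts, so nothing is read from it. Of 27 groups checked it was the only one, where chance gives about 1 in 20 of groups that are not mostly at 0. The log2 fold change of *Ffar2* in in vivo AKP over organoid AKP was larger in F than in E libraries by 4.65 ± 0.89 (SE, edgeR interaction of line and letter, adjusted p = 0.000298), with 137 and 59 counts in in vivo AKP and 2 and 12 counts in organoid AKP for F and E. All 3 in vivo AKP libraries lay above all 3 organoid AKP libraries in each letter. The adjusted p is a description, since the receptors were chosen on their levels in these same libraries.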

How the results depend on the processing

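The receptors' 57 fitted fold changes were recomputed to 1054 alternative values. None of the 28 folds past the threshold changed sign, and 9 of the other 29 did in 38 values, among them *Ffar2* in line #iii (-0.10, up to 0.67), *Adra2a* in line #i (-0.05, up to 0.36) and *F2r* in organoid AKP against control (-0.02, up to 0.63). In 21 values 9 folds were no longer past the threshold, and in 12 others were past it. With 1 letter alone these were *Lpar6* in in vivo AKP against control (F, -0.13), and *Lpar6* and *Adra2a* in in vivo AKP against organoid AKP (E, 0.25 and 0.85). *Ffar4* was no longer past it in in vivo AKP with only the lines compared (-0.96), in line #iii with the replicate block (-0.74) or without its replicate 1 or 3 or organoid AKP replicate 5, and in line #v without a filter or without any 1 of its libraries or organoid AKP replicates 1, 2 or 3. The same held in line #v for *Adora1* without its replicate 2 or 3 or organoid AKP replicate 6 and for *Adra2a* without its replicate 3, and in line #i for *F2r* without its replicate 2 or 3. By size, which was judged only for folds between AKP lines, 28 values moved by more than the spread between libraries. In in vivo AKP against organoid AKP, 16 other receptors were called with E libraries alone, beside 26. The replicate number as a block gave 387 genes in line #i, 1203 in line #iii, 3259 in line #iv and 3937 in line #v, beside 973, 2207, 666 and 1440. It gave 2, 4, 13 and 21 other receptors, beside 7, 7, 4 and 7. Replicates 1 to 3 were E libraries in control, organoid AKP and in vivo AKP but F libraries in lines #iv and #v. For lines #iv and #v the block thus matched F libraries to E libraries, so its counts there mix letter and line. The replicate numbers were not taken to pair the libraries, since not every pair correlated over 0.1: deviations of same-numbered libraries of in vivo AKP and organoid AKP correlated at 0.07 to 0.38, over 0.1 in 5 of 6 pairs, and at -0.03 to 0.04 once centred within letters. The letter as a factor gave 490 genes and 2 other receptors in line #i and 1423 and 4 in line #iii. F libraries alone gave 1725 and 8 in line #iv and 3678 and 19 in line #v. In line #i other receptors were 4 by limma-voom, 3 with only the lines compared and 3 with E libraries alone, and in line #iv 2 with only the lines compared. The interaction of line and letter was called for 2 receptors (*Ffar2*, *Ffar4*) with DESeq2 size factors and 3 (*Glp1r* also) without a filter, beside 1. These counts, and those with 1 library left out, run over all 10 receptors. *Glp1r* had 0 counts in F libraries of organoid AKP, so the size of its interaction cannot be estimated. Leaving out 1 library gave 222 to 1716 genes and 2 to 8 other receptors in line #i, 2003 to 3779 and 9 to 19 in line #ii (3351 and 17 with all), 971 to 2616 and 3 to 10 in line #iii, 309 to 713 and 2 to 5 in line #iv, 690 to 1393 and 4 to 9 in line #v, and 1 to 3 receptors with an interaction. The cause of these shifts was not tested. The highest and lowest counts followed from leaving out replicate 3 of lines #i, #ii, #iii or #v, replicate 1 of line #iv, or organoid AKP replicates 1, 2, 3 or 6, and 3 interactions from leaving out in vivo AKP replicate 1. Counts of *Glp1r*, *Ffar2*, *Gper1*, *Adora1* and *Adra2a* in organoid AKP were at most 24 over 6 libraries, which limits the precision of their ratios.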
